A study of Mus musculus with 6 samples.

Results

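A set of 49 imprinted mouse genes, spread over 21 loci, was followed in pancreatic islets of Dpy30 knockout and control mice. The members were taken by symbol from textbook lists of imprinted genes, and the list as a whole was selected on the difference between the knockout and control libraries, because it was known to hold many genes that differ. Of the 49 symbols, 48 were matched among 54119 genes of the GENCODE vM21 annotation. The exception was Ddc-as. The filter on low counts kept 43 of them among 16430 genes, and the other 5 (Phlda2, Rtl1, Calcr, Magel2 and Peg12) had 0 to 10 reads in each library. Since the contrast between knockout and control chose the list, its counts and changes are given as a description.

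The islets came from male C57BL/6 mice on postnatal day 24, with 3 control and 3 Dpy30 knockout animals and a separate poly(A)-selected library for each. The Dpy30 protein is a common component of the SET1 and MLL enzyme complexes, which add methyl groups to lysine 4 of histone H3, a mark found at active promoters. The labels give neither the cells in which the gene was deleted nor the deleted part of it, and they do not describe the alleles of the controls. Reads were not assigned to parental copies, so the parental class of each gene is background knowledge and not a measurement.

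An imprinted gene is transcribed mainly from the copy inherited from the father or mainly from the copy inherited from the mother. Most imprinted genes lie in clusters, each governed by an imprinting control region whose DNA is methylated on the copy from only one parent, while the unmethylated copy carries histone H3 lysine 4 methylation. Many of the genes control growth, and several act in islets: Nnat helps process the insulin precursor, Rasgrf1 and Cdkn1c affect the number of beta cells, and Plagl1 is linked to transient neonatal diabetes.

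The libraries held 17131515 to 25354384 estimated reads. The insulin genes took 13.6 to 21.9% of reads in control and 6.51 to 9.66% in knockout libraries. CPM below are read counts scaled to the library total with edgeR's TMM factors. Knockout replicate 2 was the smallest library and stood apart, with 15.8% of its reads in Gm42418, a gene that overlaps ribosomal RNA, against 0.102 to 0.214% in the other libraries. Summed levels of 7 beta cell markers, which consist mostly of Ins1 and Ins2 reads, were 158100 to 262400 CPM in control and 71150 to 121400 CPM in knockout libraries. Of these, Ins1 and Ins2 did not overlap between the groups and lay lower in knockout, Mafa lay higher without overlap (276 to 320 against 341 to 536 CPM), Iapp, Pdx1, Nkx6-1 and G6pc2 overlapped, and none was called (edgeR adjusted p = 0.069 to 0.345). The sums for other pancreatic cells were 601 to 2505 CPM in control and 1776 to 9817 in knockout libraries for acinar cells, and 374 to 672 against 600 to 1140 CPM for mesenchymal cells, with overlap in both. They did not overlap for endothelial cells, at 652 to 754 against 779 to 1101 CPM with 2 of 7 markers called higher, or for ductal cells, at 58.8 to 67.5 against 68.1 to 78.8 CPM with 1 of 6 called higher and 1 lower. The sum of 5 alpha cell markers, mostly Gcg reads, was 36430 to 65520 CPM in control and 23960 to 28880 CPM in knockout libraries. Of these markers 1 was called lower and 0 higher, and Ttr had a positive log2 difference. The sum of 3 delta cell markers, mostly Sst reads, was 3109 to 3440 against 1455 to 1869 CPM, with 2 called lower and 0 higher. Neither of these sums overlapped between the groups. Dpy30 itself, counted over the whole gene, was at 25.6, 30.2 and 31.8 CPM in control and 31.9, 53.2 and 30.7 CPM in knockout replicates 1 to 3. Per transcript length, in TPM, it was at 44.8 to 56.2 in control and 110.9 to 119.4 in knockout libraries, without overlap. The cause of this difference was not tested, and neither measure is a check of a deletion inside the gene.

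To show promoters of some of the members whose calls held in each fit that left out 1 library, the stretches before the RefSeq starts of Nnat, Zim1 and Rasgrf1 are printed, with that of Mest as a paternally expressed gene whose groups overlapped, and the interval between the starts of Peg3 and Usp29, which are transcribed away from each other. Sequences are from the RefSeq table of promoters on GRCm38.p6, written 5′ to 3′ on the strand of the gene (the Peg3-Usp29 interval on the strand of Usp29). Capitals mark CpG dinucleotides, the positions at which mammalian DNA is methylated. Nnat lies at chr2:157559878-157560077 on the plus strand, Zim1 at chr7:6696433-6696632 on the minus strand, Rasgrf1 at chr9:89909575-89909774 on the plus strand, Mest at chr6:30737853-30738052 on the plus strand, and the Peg3-Usp29 interval at chr7:6730432-6730577.
Nnat: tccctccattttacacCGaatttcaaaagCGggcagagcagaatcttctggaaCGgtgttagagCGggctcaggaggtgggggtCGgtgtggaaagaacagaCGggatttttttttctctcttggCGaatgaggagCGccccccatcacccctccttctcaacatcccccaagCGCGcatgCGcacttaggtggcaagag
Zim1: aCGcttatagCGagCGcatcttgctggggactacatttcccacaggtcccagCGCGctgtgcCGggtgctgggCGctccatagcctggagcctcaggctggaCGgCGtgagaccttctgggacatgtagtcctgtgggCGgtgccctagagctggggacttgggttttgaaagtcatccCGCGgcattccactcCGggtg
Rasgrf1: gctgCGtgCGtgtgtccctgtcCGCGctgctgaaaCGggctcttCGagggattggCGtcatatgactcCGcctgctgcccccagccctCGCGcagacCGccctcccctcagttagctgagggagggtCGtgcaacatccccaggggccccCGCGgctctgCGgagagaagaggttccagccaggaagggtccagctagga
Mest: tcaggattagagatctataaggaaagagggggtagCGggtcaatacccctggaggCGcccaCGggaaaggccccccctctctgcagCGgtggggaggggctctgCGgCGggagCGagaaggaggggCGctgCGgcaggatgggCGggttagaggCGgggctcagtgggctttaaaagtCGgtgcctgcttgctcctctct
Peg3-Usp29: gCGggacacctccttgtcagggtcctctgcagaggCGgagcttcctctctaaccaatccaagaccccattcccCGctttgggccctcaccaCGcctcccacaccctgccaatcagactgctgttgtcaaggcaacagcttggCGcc

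These stretches hold 11 CpG in Nnat, 13 in Zim1, 15 in Rasgrf1 and 12 in Mest, each over 200 bases, and 5 over the 146 bases between Peg3 and Usp29. RefSeq windows of 300 bases (250 before and 50 after a start) were found for 34 tested members, and for 28 of them the window lay within 500 bases of the start used most in these islets. The median of these 28 windows was 17 CpG, against 7 over all 32851 windows of the table. The core of the motif bound by ZFP57, the zinc finger protein that holds methylation at imprinting control regions, is TGCCGC; it was searched on both strands. It was found in 10 of the 28 windows (35.7%) and in 11.6% of all windows. The motif core itself holds a CpG, and the members' windows were richer in CpG. These shares were not compared at equal CpG, so no enrichment is read from them. Among members called lower 3 of 7 windows held it (42.9%), and among those not called 7 of 20 (35.0%). A match is a description of the letters and not a site.

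In these islets the members spanned a wide range of levels. Per length, in TPM, the highest in control libraries was Gnas, which encodes the stimulatory G protein alpha subunit that couples hormone receptors to cAMP, at 924 ± 137 (mean ± SD, n = 3). Next came the maternally expressed noncoding RNA Meg3 at 388 ± 15.2, the zinc finger gene Peg3 at 229 ± 36.8, the noncoding RNA Rian at 148 ± 19.6 and Nnat at 114 ± 41.6 TPM. Gnas, Meg3 and Peg3 did not overlap one another, while Rian and Nnat did. Nnat was at 12.03 ± 2.27 TPM in knockout libraries.

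A gene is called here when its adjusted p in edgeR's quasi-likelihood test, with Benjamini-Hochberg adjustment over all 16430 genes, was below 0.05. Of the 43 tested members, 11 were called lower and 2 higher in knockout islets, and 30 were not called. Over all genes tested, 9.95% were called, 5.84% lower and 4.1% higher; the members' counts are set beside these shares and nothing is read from them, since this contrast chose the list. The calls fell in 9 of the 21 loci, and the Igf2-H19 domain was the only locus with calls in both directions. The median log2 change of the 43 members was -0.32 and that of all genes tested 0.01. In single knockout libraries the members' median distance from the control mean was -0.20, -0.59 and -0.31 on the log2 scale in replicates 1 to 3. In bulk islets, fewer cells of a type and less RNA per cell cannot be told apart, and this holds for each change given here. The part of the insulin and glucagon levels and of the alpha, delta, endothelial and ductal markers in the members' changes was not tested.

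**Figure D1:**
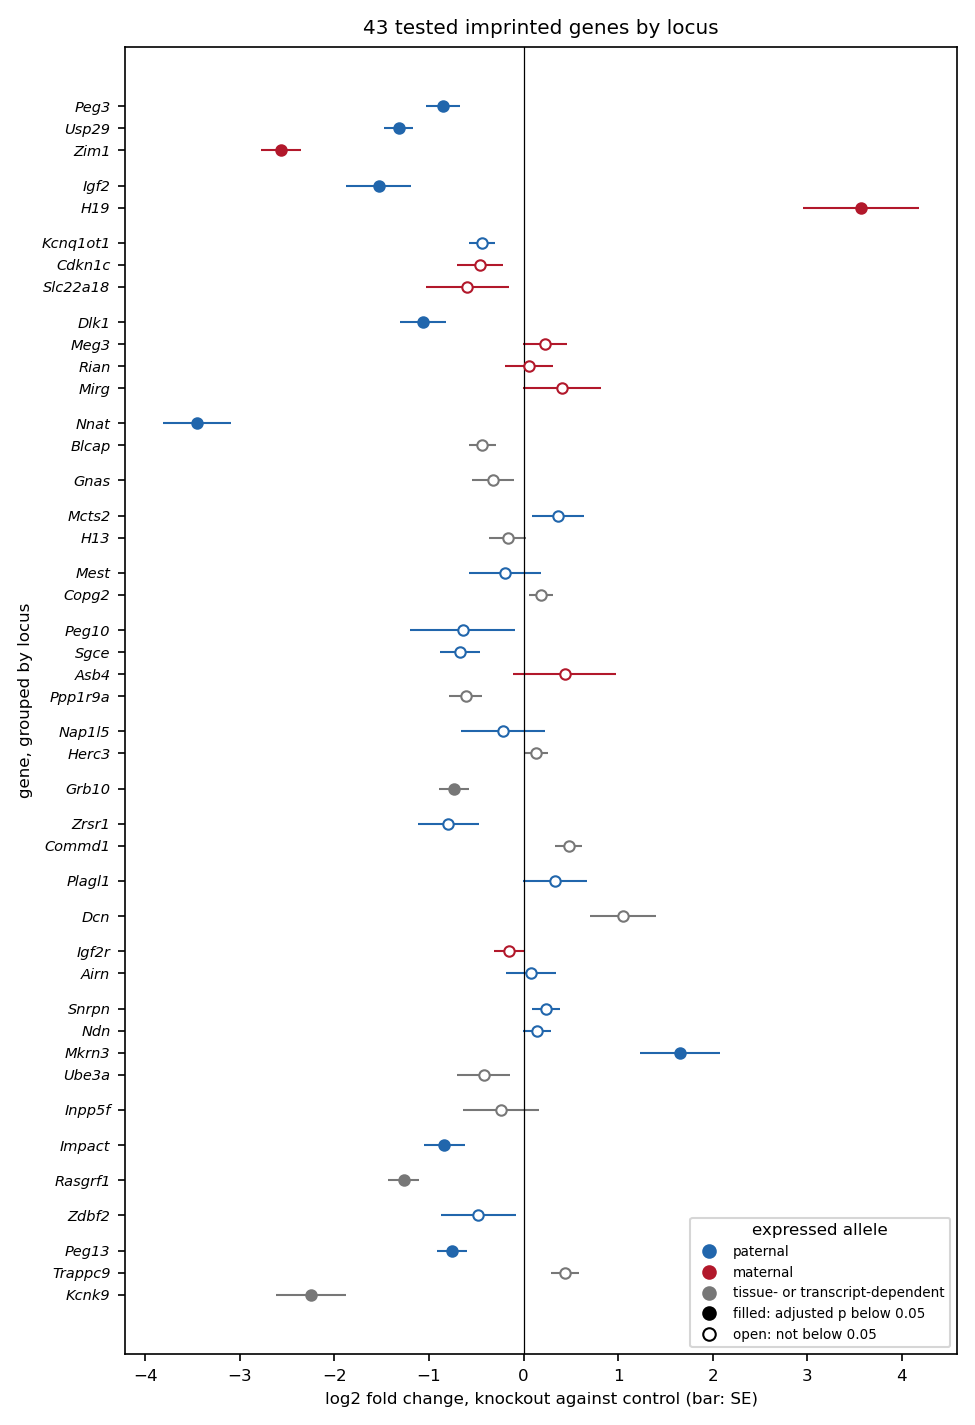
Log2 fold change of the 43 tested imprinted genes, knockout against control, with its SE as a bar, grouped by locus along the vertical axis and coloured by the expressed parental allele. Filled points are the 13 genes with an adjusted p below 0.05, from Nnat at -3.45 to H19 at 3.57.

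The proximal chromosome 7 cluster, named after Peg3, had 3 tested members, and each of them was called lower. Gene coordinates here and below are those of GENCODE vM21 on GRCm38. Zim1, a maternally expressed zinc finger gene (chromosome 7, 6671269 to 6696450, minus strand), was at 204, 151.5 and 128 CPM in control replicates 1 to 3 and at 24.4, 31.6 and 25.7 CPM in knockout replicates 1 to 3. The groups were far apart, with the lowest control library at several times the highest knockout library. Zim1 fell by 2.57 ± 0.21 on the log2 scale (± SE, edgeR adjusted p = 0.000919), or 5.93-fold.

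Usp29, a paternally expressed gene for a ubiquitin-specific protease (6730578 to 6967219, plus strand), was at 57.0, 48.6 and 54.0 CPM in control and 21.7, 17.96 and 24.0 CPM in knockout libraries. Both groups were tight and did not overlap. Its log2 change was -1.32 ± 0.15 (edgeR adjusted p = 0.00287).

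Peg3, the paternally expressed partner of Usp29 across the shared promoter region (6703892 to 6730431, minus strand), encodes a zinc finger protein with roles in growth and maternal behaviour. It was among the most abundant members, at 2260, 2099 and 1794 CPM in control and 1254, 1009 and 1153 CPM in knockout libraries. Each knockout library lay below each control library, and the log2 change was -0.85 ± 0.18 (edgeR adjusted p = 0.0243). The starts of Peg3 and Usp29 are 147 bases apart, and the log2 ratio of Peg3 to Usp29 TPM was 4.37, 4.47 and 4.04 in control and 4.96, 4.81 and 4.55 in knockout libraries, a mean difference of 0.48 with no overlap between the groups, for which an exact permutation test of 3 against 3 gave its smallest possible p, 0.1.

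The reads of Usp29 were spread over several starts. The group of starts at 6730855 to 6730945, which lies inside the gene and led in every library, gave 68.3 ± 1.47% of Usp29 reads in control and 57.6 ± 5.94% in knockout libraries (SD, n = 3). The group at 6730578 to 6730583, next to Peg3, gave 25.1 ± 0.964% and 32.7 ± 1.24%. The shares of the groups did not overlap between control and knockout in either case. In CPM the inner starts fell from 38.9, 32.6 and 37.7 in control to 13.2, 9.07 and 14.7 in knockout libraries. Their log2 change was -1.54 ± 0.22 (edgeR adjusted p = 0.03 over promoter groups). The outer starts also lay lower, from 14.2, 12.7 and 13.1 to 7.15, 6.05 and 7.52 CPM, and were not called. Their log2 difference was -0.94 ± 0.19 (edgeR adjusted p = 0.065). The difference between the inner and outer log2 values was not tested. These starts are close together, and when starts within 500 bases are joined they fall into the same group, so this separation is lost. The starts are those of annotated transcripts with estimated counts, not measured start sites.

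On chromosome 2 the called member was Nnat (neuronatin; 157560078 to 157562522, plus strand), a small paternally expressed gene lying inside an intron of Blcap on the opposite strand. It was at 153.7, 83.0 and 130.4 CPM in control and 7.39, 16.9 and 9.44 CPM in knockout libraries. The lowest control library was well above the highest knockout library, knockout replicate 2. Nnat fell by 3.45 ± 0.36 on the log2 scale, or 10.96-fold (edgeR adjusted p = 0.0021), the largest decrease among the 43 tested members. Nearly all of its reads came from the starts at 157560078 to 157560140, whose share was 98.7 ± 0.406% in control and 99.5 ± 0.425% in knockout libraries. The library kit keeps strand; the sources used here do not give whether reads were quantified by strand. Reads of overlapping genes on opposite strands, such as Nnat and Blcap, Airn and Igf2r, or the retrogenes and their hosts, may therefore not be told apart.

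Blcap, the ubiquitously expressed host gene, in which the paternal or maternal copy leads depending on the transcript, was at 56.0, 56.3 and 57.9 CPM in control and 36.8, 48.9 and 40.3 CPM in knockout libraries. The groups did not overlap, but the log2 difference of -0.44 ± 0.14 was not called (edgeR adjusted p = 0.0886). Within each library, the log2 ratio of Nnat to Blcap TPM was 2.05, 1.21 and 1.87 in control and -1.59, -0.84 and -1.22 in the knockouts, a difference of -2.93. Nnat thus went from the more abundant gene of the pair to the less abundant one in each knockout library.

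**Figure D2:**
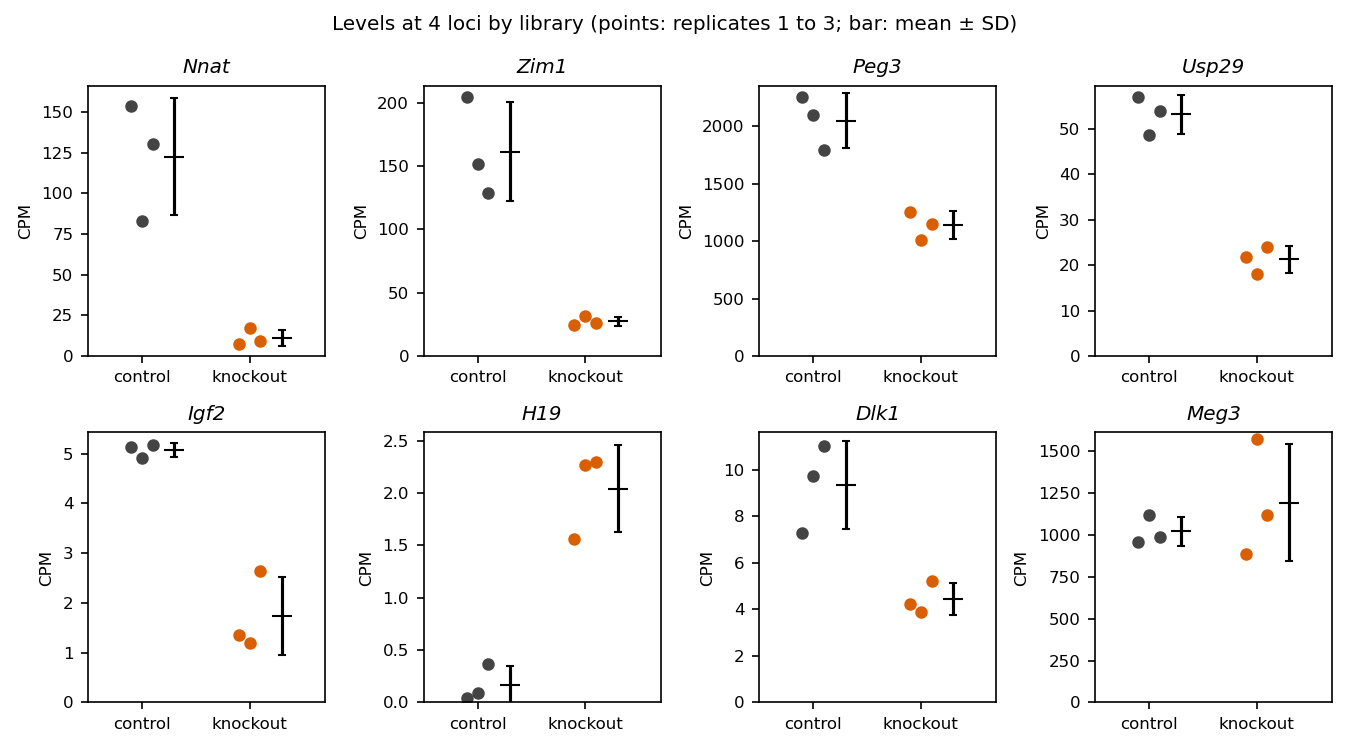
Level in CPM (vertical axes, each from 0) of 8 genes at the Nnat, Peg3, Igf2-H19 and Dlk1-Meg3 loci in control (dark grey) and knockout (orange) libraries, with points for replicates 1 to 3 and mean ± SD beside them. Control and knockout points do not overlap for 7 of the genes and overlap for Meg3.

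At the distal chromosome 7 domain of Igf2 and H19, members moved in opposite directions at low levels. Igf2, the paternally expressed insulin-like growth factor (142650766 to 142666816, minus strand), was at 5.13, 4.91 and 5.17 CPM in control and 1.36, 1.20 and 2.63 CPM in knockout libraries. Control libraries were nearly equal, and each lay above the 3 knockout libraries. Its log2 change was -1.53 ± 0.34 (edgeR adjusted p = 0.0301).

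H19, the maternally expressed noncoding RNA that shares enhancers with Igf2 (142575529 to 142578143, minus strand), had 1, 2 and 9 reads in control and 39, 36 and 61 reads in knockout libraries. In CPM these were 0.042, 0.086 and 0.37 against 1.56, 2.27 and 2.29, so each knockout library lay above each control library. H19 rose by 3.57 ± 0.62 on the log2 scale (edgeR adjusted p = 0.0118), a size that rests on few control reads and became 4.88 without control replicate 3. The log2 ratio of Igf2 to H19 TPM, with 0.1 added to both, was 3.26, 2.73 and 2.58 in control and -1.20, -0.16 and -0.51 in knockout libraries. The log2 difference of H19 was 3.05 with the mesenchymal level as a covariate and 3.98 with the acinar level, both without a call (edgeR adjusted p = 0.18 and 0.0585).

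The adjoining Kcnq1ot1 domain held no call. Kcnq1ot1, the paternally expressed antisense RNA of the domain, was at 46.9, 53.1 and 46.6 CPM in control and 34.8, 32.3 and 41.0 CPM in knockout libraries. Its groups did not overlap, and the log2 difference was -0.44 ± 0.14 (edgeR adjusted p = 0.0864). Cdkn1c, the maternally expressed inhibitor of the cell cycle, was at 5.38, 4.05 and 4.80 CPM against 3.53, 3.03 and 3.72 CPM, again without overlap and not called. The transporter gene Slc22a18 was at 0.378 to 1.21 CPM, and Phlda2 had at most 2 reads.

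On distal chromosome 12, Dlk1 was called lower and its noncoding neighbours were not called. Dlk1, a paternally expressed membrane protein of the Notch ligand family (109452823 to 109463336, plus strand), was at 7.30, 9.73 and 11.01 CPM in control and 4.21, 3.91 and 5.23 CPM in knockout libraries. The groups did not overlap and Dlk1 fell by 1.07 ± 0.24 on the log2 scale (edgeR adjusted p = 0.0316). Of the maternally expressed noncoding RNAs, Meg3 was at 957, 1118 and 986 CPM in control and 885, 1575 and 1119 CPM in knockout libraries.

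Rian followed Meg3, with 303, 337 and 361 CPM in control and 246.5, 492 and 301 CPM in knockout libraries, and Mirg, a host of many miRNAs, had 11.4, 16.8 and 21.8 against 10.9, 35.7 and 20.0 CPM. Knockout replicate 2, the library rich in Gm42418, was the highest of the 6 for the 3 noncoding RNAs. Their log2 differences were 0.23 ± 0.23, 0.06 ± 0.25 and 0.41 ± 0.41 (edgeR adjusted p = 0.569, 0.915 and 0.565) and became -0.03, -0.28 and -0.11 without that library. The log2 ratio of Dlk1 to Meg3 TPM was -6.22, -6.03 and -5.55 in control and -6.81, -8.18 and -6.72 in knockout libraries, a mean difference of -1.31 with all libraries and -0.83 without knockout replicate 2. An exact permutation test of this ratio with all libraries gave its smallest possible p, 0.1, or 0.15 with Benjamini-Hochberg adjustment over the pairs. Rtl1 had at most 2 reads in a library.

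A further 5 calls lay at the Rasgrf1, Peg13-Kcnk9, Grb10 and Impact loci. Rasgrf1, an activator of Ras and Rac signalling that is paternally expressed in some tissues (chromosome 9, 89909908 to 90026977, plus strand), was at 203, 176 and 144 CPM in control and 72.1, 78.8 and 65.7 CPM in knockout libraries. The groups were well separated, and Rasgrf1 fell by 1.27 ± 0.17 on the log2 scale, or 2.41-fold (edgeR adjusted p = 0.0044).

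On chromosome 15, Peg13 is a paternally expressed noncoding RNA inside an intron of Trappc9 (72805600 to 72810324, minus strand). It was at 161, 171 and 132 CPM in control and 81.2, 90.2 and 102.4 CPM in knockout libraries, and fell by 0.76 ± 0.16 on the log2 scale (edgeR adjusted p = 0.0227). Kcnk9, a potassium channel gene expressed from the maternal copy in brain, had 18, 22 and 22 reads in control and 4, 3 and 5 reads in knockout libraries. Its groups did not overlap and its log2 change was -2.25 ± 0.37 (edgeR adjusted p = 0.00978), on few reads.

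Trappc9, the vesicle trafficking gene that hosts Peg13, lay the other way. Its level was 53.8, 68.3 and 56.3 CPM in control and 70.6, 82.8 and 87.3 CPM in knockout libraries, with no overlap and no call (log2 difference 0.43 ± 0.15, edgeR adjusted p = 0.106). The host and the hosted RNA thus differed in sign across the same 6 libraries. Peg13 and Trappc9 are on the same strand here, so reads of unspliced Trappc9 could be counted to Peg13.

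Grb10, an adaptor that dampens insulin and IGF receptor signalling (chromosome 11, 11930508 to 12038683, minus strand), is expressed from the maternal copy in most tissues and the paternal copy in neurons. It was at 69.6, 68.9 and 77.0 CPM in control and 44.2, 34.7 and 50.5 CPM in knockout libraries. Each knockout library was below each control library, and the log2 change was -0.74 ± 0.16 (edgeR adjusted p = 0.0269). The start at 12037401 gave 93.4 ± 2.89% of its reads in control and 93.0 ± 3.45% in knockout libraries.

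Impact, a paternally expressed regulator of the translational stress kinase GCN2, was at 124, 95.7 and 73.3 CPM in control and 65.9, 47.1 and 51.0 CPM in knockout libraries. The groups were adjacent without overlap, and the log2 change was -0.84 ± 0.22 (edgeR adjusted p = 0.0495), at the edge of the threshold.

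In the Snrpn-Ube3a cluster of central chromosome 7, known from the Prader-Willi and Angelman syndromes, the only call was on a gene of few reads. Mkrn3, a paternally expressed ubiquitin ligase gene (62417593 to 62420139, minus strand), had 12, 5 and 16 reads in control and 42, 21 and 36 reads in knockout libraries. The groups did not overlap, and Mkrn3 rose by 1.66 ± 0.42 on the log2 scale (edgeR adjusted p = 0.0468).

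Snrpn and Ndn of that cluster had similar levels. Snrpn, which encodes a splicing factor subunit, was at 58.7, 64.2 and 55.6 CPM in control and 74.8, 57.9 and 77.0 CPM in knockout libraries (log2 difference 0.23 ± 0.15, edgeR adjusted p = 0.352). Ndn, a growth suppressor of the MAGE family, was at 56.4, 59.3 and 60.1 against 68.3, 53.6 and 71.8 CPM (0.14 ± 0.14, edgeR adjusted p = 0.568). For both, knockout replicates 1 and 3 lay above the controls and knockout replicate 2 within or below their range.

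Ube3a, the ubiquitin ligase gene that is maternally expressed in neurons, was at 115, 110.0 and 104 CPM in control and 115, 47.6 and 83.0 CPM in knockout libraries. Its log2 difference of -0.42 ± 0.28 (edgeR adjusted p = 0.373) became -0.15 without knockout replicate 2. Magel2 had 1, 1 and 9 reads in control and 0 in each knockout library, which allows up to 3 reads in each, and Peg12 had 0 to 10 reads.

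Among the loci without a call, Gnas was at 1463, 1476 and 1665 CPM in control and 1385, 860 and 1438 CPM in knockout libraries. The groups did not overlap, but the log2 difference of -0.32 ± 0.23 (edgeR adjusted p = 0.395) became -0.12 without knockout replicate 2. Most Gnas reads came from the ordinary start at 174330006 to 174330097, with a share of 84.0 ± 2.14% in control and 86.1 ± 1.83% in knockout libraries. Reads of the transcript that starts farthest upstream, at 174284320, were at 77.1, 65.8 and 67.6 CPM in control and 44.7, 40.4 and 50.1 CPM in knockout libraries, without overlap and without a call (log2 difference -0.63 ± 0.15, edgeR adjusted p = 0.0934).

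The Peg10-Sgce cluster of chromosome 6 held no call without the replicate number as a block and 3 calls, Peg10, Sgce and Ppp1r9a, with it. The labels do not say that same-numbered libraries belong together, so the blocked values are an alternative. Peg10, a paternally expressed gene derived from a retrotransposon, was at 61.5, 15.8 and 35.8 CPM in control and 41.6, 11.1 and 19.5 CPM in knockout libraries. Sgce (epsilon-sarcoglycan), whose start is 99 bases from that of Peg10, was at 27.3, 16.2 and 19.3 against 13.9, 12.4 and 13.2 CPM. Peg10 varied widely within each group and overlapped between them, but was lower in knockout in each of the 3 same-numbered pairs, whereas Sgce did not overlap. Their log2 differences were -0.64 ± 0.56 and -0.67 ± 0.21 (edgeR adjusted p = 0.494 and 0.0874), and -0.66 and -0.64 with the block (edgeR adjusted p = 0.0248 and 0.0461). The log2 ratio of Peg10 to Sgce TPM was -1.42 ± 0.61 in control and -1.40 ± 0.84 in knockout libraries.

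Ppp1r9a, which encodes the actin-binding protein neurabin, was at 69.3, 54.3 and 51.9 CPM in control and 45.1, 32.1 and 37.5 CPM in knockout libraries, with no overlap (log2 difference -0.61 ± 0.18, edgeR adjusted p = 0.0648, and 0.0221 with the block). Asb4, a maternally expressed ubiquitin ligase adaptor, was at 11.1, 7.06 and 7.64 against 23.2, 4.73 and 6.81 CPM. One library, knockout replicate 1, set its log2 difference of 0.43 ± 0.55, which was -0.58 without it (edgeR adjusted p = 0.652 and 0.276). Calcr had 1 read in all.

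Mest, a paternally expressed enzyme of the hydrolase family, was at 26.4, 8.14 and 14.7 CPM in control and 16.1, 11.5 and 15.2 CPM in knockout libraries (log2 difference -0.20 ± 0.38, edgeR adjusted p = 0.777). The knockout values lay inside the control range. Its neighbour Copg2, a coat protein gene, was at 59.2, 59.5 and 55.8 against 72.4, 59.6 and 66.1 CPM (0.18 ± 0.13, edgeR adjusted p = 0.385).

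The retrogenes that sit in introns of other genes gave no call. Nap1l5, a paternally expressed nucleosome assembly gene inside Herc3, was at 179.5, 41.3 and 93.6 CPM in control and 94.7, 100.2 and 75.0 CPM in knockout libraries (log2 difference -0.22 ± 0.44, edgeR adjusted p = 0.788), while Herc3 was nearly constant at 39.6, 40.0 and 41.1 against 46.2, 46.6 and 39.5 CPM (0.13 ± 0.12, edgeR adjusted p = 0.529). Mcts2, inside the signal peptide peptidase gene H13, was at 5.05, 4.35 and 6.28 against 7.35, 8.07 and 4.85 CPM. H13 was at 111, 114 and 159 against 93.7, 119.5 and 128 CPM (-0.17 ± 0.19, edgeR adjusted p = 0.613). The groups overlapped for each of these genes.

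Zrsr1, a paternally expressed splicing factor gene inside Commd1, was at 77.4, 45.6 and 31.8 CPM in control and 38.3, 26.0 and 24.6 CPM in knockout libraries (log2 difference -0.80 ± 0.32, edgeR adjusted p = 0.157, and 0.0272 with the block). Its host Commd1, which encodes a copper metabolism protein, was at 24.0, 24.9 and 24.6 against 36.6, 36.5 and 29.0 CPM (0.48 ± 0.14, edgeR adjusted p = 0.0703). Zrsr1 overlapped between the groups and Commd1 did not, and they lay on opposite sides of 0, as Peg13 and Trappc9 did.

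Of the growth regulators at other loci, Plagl1, a paternally expressed zinc finger gene, was at 19.4, 10.2 and 10.9 CPM in control and 24.7, 12.6 and 13.8 CPM in knockout libraries (log2 difference 0.33 ± 0.34, edgeR adjusted p = 0.566). Igf2r, the maternally expressed receptor that clears IGF2, was at 135, 174 and 138 against 118.5, 140 and 143.5 CPM (-0.15 ± 0.16, edgeR adjusted p = 0.574). Its antisense RNA Airn was at 7.68, 9.13 and 10.6 against 8.83, 12.98 and 7.26 CPM. These 3 genes overlapped between the groups.

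Zdbf2, a paternally expressed gene needed for body growth, was at 226, 100.5 and 138 CPM in control and 175, 68.9 and 88.8 CPM in knockout libraries (log2 difference -0.48 ± 0.39, edgeR adjusted p = 0.472, and 0.0487 with the block). Inpp5f, a phosphoinositide phosphatase gene, was at 177, 66.7 and 73.8 against 126, 63.5 and 79.4 CPM (-0.24 ± 0.40, edgeR adjusted p = 0.74). In Inpp5f much of the spread lay at 2 starts: the start at 128688489, in the region of its imprinted short transcript, was at 82.1, 14.5 and 21.4 CPM in control and 60.1, 28.0 and 29.1 CPM in knockout libraries. The start at 128687546 was at 38.7, 0 and 0 CPM in control and 15.2, 3.15 and 10.9 CPM in knockout libraries. The start of the long transcript at 128611328 to 128611360 was steadier, at 36.7, 34.5 and 34.1 against 30.3, 24.1 and 26.9 CPM.

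Dcn, the proteoglycan decorin, which is imprinted in placenta and typical of fibroblasts, was at 12.6, 6.503 and 10.9 CPM in control and 21.4, 12.2 and 28.6 CPM in knockout libraries. The groups overlapped by control replicate 1 and knockout replicate 2, and the log2 difference of 1.05 ± 0.35 was not called (edgeR adjusted p = 0.0964). The sum of 10 mesenchymal markers was 588, 374 and 672 CPM in control and 916, 600 and 1140 CPM in knockout libraries. Replicate 2 was the lowest of its group for both Dcn and the sum, and knockout replicate 3 the highest of all libraries. The log2 difference of Dcn was -0.00013 with the mesenchymal level as a covariate and 0.65 with the acinar level, fits that also leave 62 and 475 of the 1634 calls over all genes. With the replicate block Dcn was called (1.02, edgeR adjusted p = 0.0146). The part of mesenchymal cells in the level of Dcn was not tested.

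**Figure D3:**
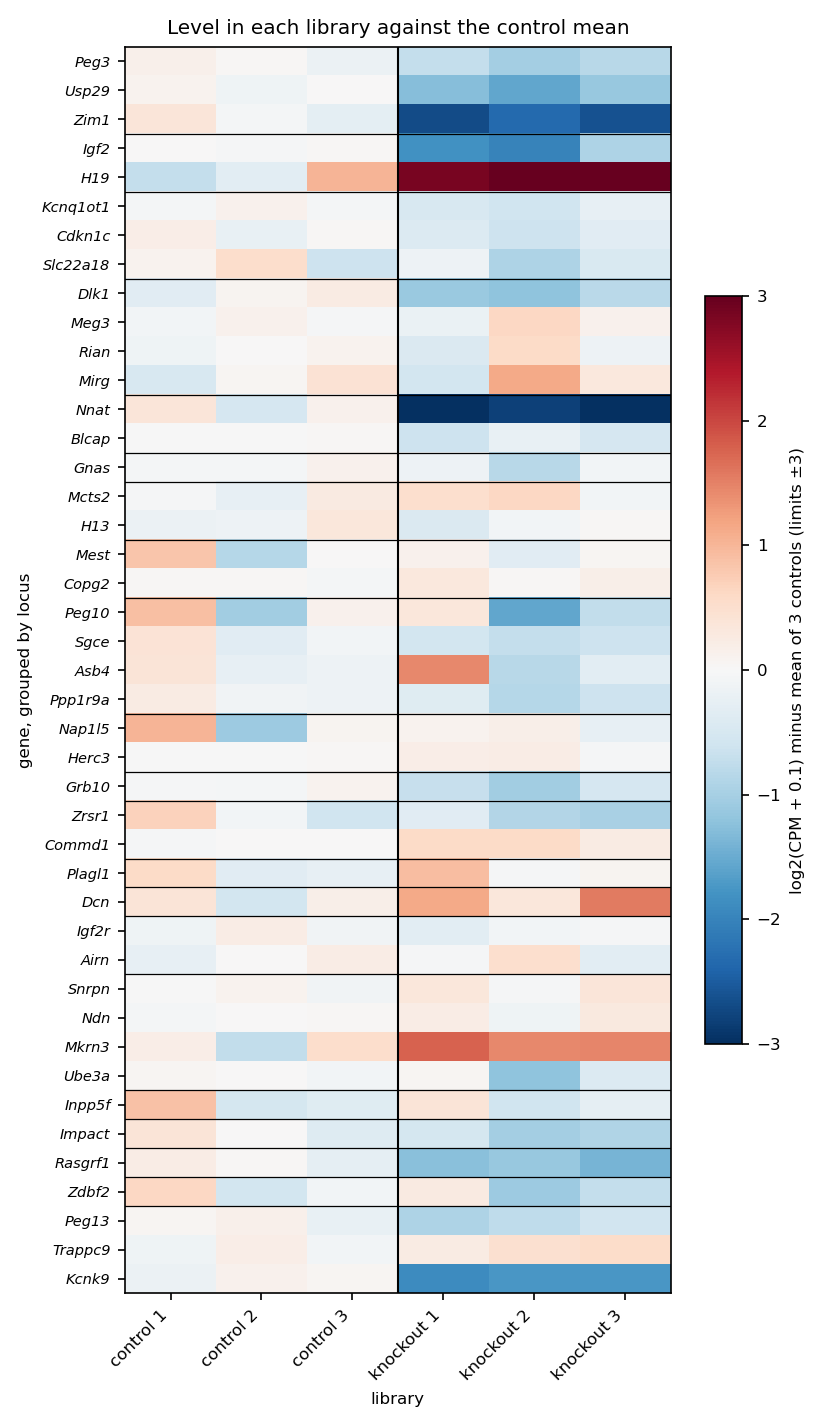
Level of the 43 tested members in each library as log2(CPM + 0.1) minus the mean of the 3 control libraries, with genes in rows grouped by locus, libraries in columns and colours that end at 3 in either direction. Nnat and Zim1 are dark blue in the 3 knockout columns and H19 dark red.

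By expressed allele, the paternally expressed class held 20 tested genes, of which 7 were called lower (Peg3, Usp29, Igf2, Dlk1, Nnat, Impact and Peg13) and 1 higher (Mkrn3), with a median log2 difference of -0.56. Of the 9 tested maternally expressed genes, 1 was called lower (Zim1) and 1 higher (H19), with a median of 0.06. The 14 genes whose expressed allele depends on tissue or transcript held 3 calls, all lower (Grb10, Rasgrf1 and Kcnk9), with a median of -0.28. Calls in the lower direction were found in each class, and the difference between the classes was not tested. Of the 43 tested members, 17 lay lower in knockout without overlap between the groups and 5 lay higher. Of all 16430 genes tested, 2819 lay lower (17.2%) and 2897 higher (17.6%) without overlap. This contrast chose the list, so nothing is read from the members' counts.

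**Figure D4:**
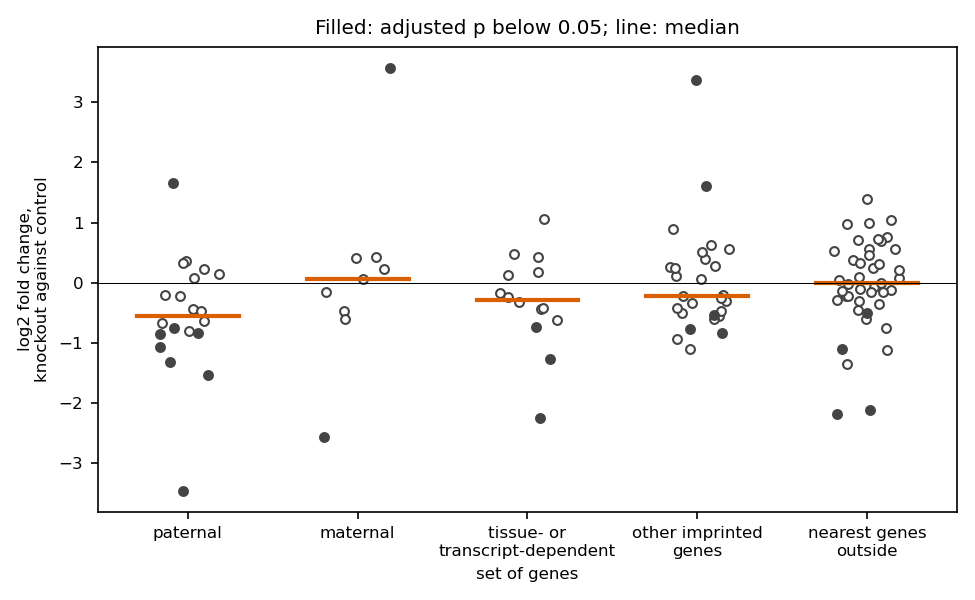
Log2 fold change, knockout against control, of each tested gene in the 3 allele classes of the members, in 27 other imprinted genes and in 42 nearest genes outside the span of the members at each locus. Filled points mark an adjusted p below 0.05, and lines mark the medians. The medians are -0.56, 0.06, -0.28, -0.22 and -0.01 from left to right.

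At the level of promoters, starts within 100 bases were joined, which gave 29846 groups with enough reads. The members' calls were the leading groups of Nnat, Zim1 (log2 change -2.58, edgeR adjusted p = 0.00842), Rasgrf1 (-1.26, edgeR adjusted p = 0.0231) and Usp29, and the minor Nnat start at 157561009. Over all promoter groups 1.88% were called, 1.27% lower and 0.603% higher. Among 27 members with several promoter groups, the share of the leading group did not overlap between control and knockout for 7: Usp29, Zim1, Nnat, Herc3, Dcn, Ube3a and Trappc9. In 4 of these (Zim1, Nnat, Herc3 and Ube3a) the mean share moved by 0.829 to 3.25 percentage points.

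For Trappc9 the start at 73061204 took 50.9 ± 5.67% of reads in control and 61.0 ± 3.22% in knockout libraries, and the start at 73061045 to 73061050 took 24.4 ± 1.51% and 9.01 ± 3.52%. These starts are close together, and when starts within 500 bases were joined the share of the leading group differed by -5.32 percentage points, in the opposite direction. An exact permutation test of 3 against 3 cannot give a p under 0.1, so the shares are given as values.

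Several members varied widely among the control mice. Of 38 members with at least 5 CPM, the median SD of log2 CPM over the 3 controls was 0.227, against 0.166 for 11524 genes. An SD above 0.5 was seen in 7 of the 38 (18.4%) and in 7.75% of those genes: Nap1l5 (1.06), Peg10 (0.981), Mest (0.843), Inpp5f (0.773), Zrsr1 (0.645), Zdbf2 (0.588) and Plagl1 (0.508). Of these, 6 are paternally expressed by background knowledge, and Inpp5f has a paternally expressed short transcript. In each of the 7 genes control replicate 1 was the highest control library, and in Nap1l5, Peg10, Mest, Inpp5f, Zdbf2 and Plagl1 control replicate 2 was the lowest.

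The glucagon gene Gcg had the same order, with 63050, 34730 and 44330 CPM in control replicates 1 to 3. The order of control replicate 1 over 3 over 2 was seen in 11 of the 38 members (28.9%) and in 17.5% of the 11524 genes, and the part of the alpha cell level in it was not tested. In knockout libraries Gcg was at 23290, 25490 and 21730 CPM, and replicate 1 was again the highest for Peg10, Mest, Inpp5f, Zdbf2, Plagl1 and Zrsr1 but not for Nap1l5.

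**Figure D5:**
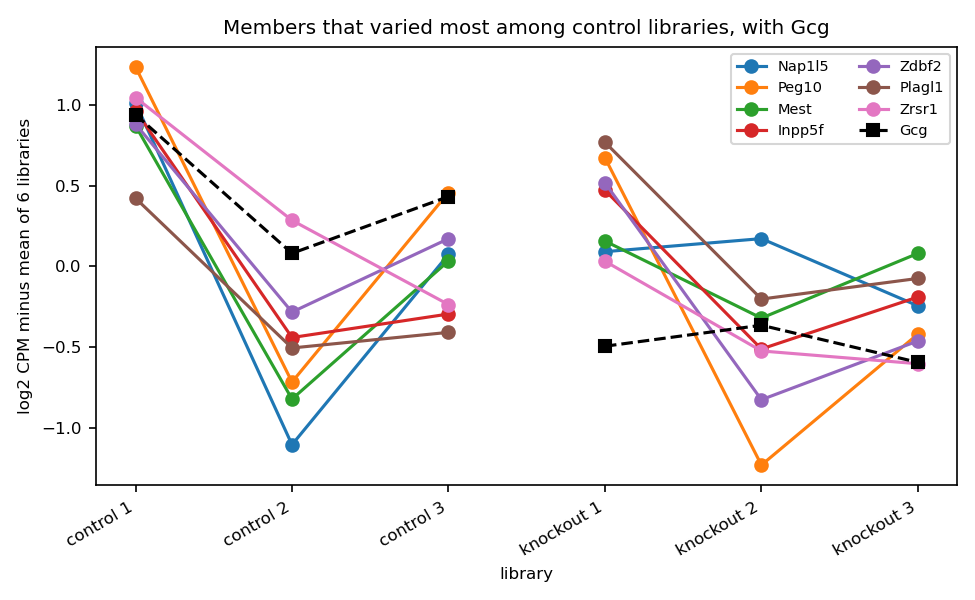
Log2 CPM minus the mean of the 6 libraries for the 7 members with a control SD above 0.5 and for Gcg (dashed), across control and knockout libraries. The 7 members and Gcg are highest in control replicate 1 among the controls, and 6 of the members are highest in knockout replicate 1 among the knockouts.

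A list of 38 other imprinted genes, not members, had 27 tested. Of these, 3 were called lower: Th, the first enzyme of dopamine synthesis (log2 change -0.77 ± 0.15, edgeR adjusted p = 0.0185), the lactonase gene Pon3 (-0.83 ± 0.14, edgeR adjusted p = 0.0115) and Ddc, the next enzyme of amine synthesis (-0.54 ± 0.14, edgeR adjusted p = 0.044). The 2 called higher were Slc22a2, an organic cation transporter next to Igf2r, and Tnfrsf23, a decoy death receptor next to the Kcnq1ot1 domain. Slc22a2 was at 0.459, 0.517 and 0.986 CPM in control and 8.31, 6.05 and 6.09 CPM in knockout libraries (log2 change 3.37 ± 0.37, edgeR adjusted p = 0.00241), and Tnfrsf23 rose by 1.60 ± 0.24 (edgeR adjusted p = 0.00724). The median of the 27 was -0.22. These calls stand beside 5.84% lower and 4.1% higher over all genes tested. The 3 genes of the list with the highest control level were Ddc, Ago2 and Cd81. Ago2 and Cd81 were not called (log2 difference -0.30 ± 0.21 and -0.56 ± 0.17, edgeR adjusted p = 0.402 and 0.0733).

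Among 13 tested factors that write or keep imprints, 1 was called, beside 9.95% of all genes tested. It was Dnmt3a, the de novo DNA methyltransferase. Its level was 240.3, 168 and 212 CPM in control and 139.5, 120.2 and 121 CPM in knockout libraries (log2 change -0.71 ± 0.17, edgeR adjusted p = 0.0376). The call was lost in 5 of the 6 fits that left out 1 library and was kept without control replicate 2. Dnmt1 was at 48.8 ± 9.20 CPM in control and 48.4 ± 4.60 CPM in knockout libraries. The zinc finger gene Zfp445, its cofactor Trim28 and the insulator protein gene Ctcf had log2 differences of -0.09 ± 0.12, -0.03 ± 0.14 and -0.19 ± 0.16, none of them called. Zfp57 was at 0.391 ± 0.0402 CPM in control and 1.06 ± 0.637 CPM in knockout libraries.

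The nearest tested genes on either side of the members of each locus, on neither list of imprinted genes, numbered 42. Of these, 4 were called, close to the share of 9.95% over all genes tested. All were lower: Trpm5 (log2 change -2.18), Pdk4 (-2.12), Npepl1 (-1.10) and Map3k4 (-0.50). The median of the 42 genes was -0.01. Trpm5, a cation channel of beta cells, lies 108816 bases from the nearest member, Kcnq1ot1. It sits between Cd81 and Kcnq1 of the list of other imprinted genes, so it is not outside the imprinted domain. Cars, the neighbour on the other side, likewise lies between Nap1l4 and Tnfrsf23 of that list. Other nearest genes also lie between a member and a gene of that list: Ins2 between Igf2 and Th, Pdk4 between Asb4 and Dlx5, and Ltv1 between Plagl1 and Phactr2. Chrac1, beside Trappc9, overlaps Ago2 of that list. Pdk4, a mitochondrial kinase gene, lies 50329 bases from the nearest member of the Peg10-Sgce cluster. Npepl1 lies beside Gnas and Map3k4 beside Igf2r, and none of these 4 loci held a called member.

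The calls rested on single libraries to different degrees. Usp29, Zim1, H19, Nnat and Rasgrf1 were called in each of the 6 fits that left out 1 library. Kcnk9 was lost without knockout replicate 3 (edgeR adjusted p = 0.0507). Peg3 was called only without knockout replicates 1 or 2, Grb10 only without knockout replicates 2 or 3, Igf2 only without knockout replicate 3, Dlk1 only without control replicate 1, and Impact and Peg13 only without control replicate 3. Mkrn3 was called in none of the 6.

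With the replicate number as a block, 19 members were called, 16 lower and 3 higher, against 14.8% of all genes (7.86% lower and 6.93% higher). The additions were Peg10, Sgce, Ppp1r9a, Zrsr1, Zdbf2 and Dcn. DESeq2 called 17 members, the same 13 with Commd1, Dcn, Ppp1r9a and Sgce, against 16.0% of all genes (8.73% lower and 7.29% higher). In the authors' deposited table the adjusted p was below 0.05 for the 13 members called here and for Blcap (0.0339), Sgce (0.0359) and Dcn (0.0278). With the acinar markers' level as a covariate, Usp29, Zim1, Nnat, Rasgrf1 and Peg13 were called, and with the mesenchymal level Usp29 and Zim1, while calls over all genes went from 1634 to 475 and 62.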

How the data were processed

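Poly(A) RNA of handpicked islets was sequenced from 3 control and 3 Dpy30 knockout mice, 1 mouse per library. The deposited files give estimated counts and TPM for each transcript, which the authors made with Trimmomatic and Salmon on GRCm38 (mm10), per the submitters' processing notes. The sources used here give neither the transcript annotation nor the tools' options. The authors' deposited table of log2 fold changes and adjusted p-values came from DESeq2, per the submitters' processing notes, and only its values for members were used. A further deposited table of the authors' scaled gene values was not used.

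Transcripts were assigned to genes of GENCODE vM21: 139852 of 140948 matched, with 99.63 to 99.68% of reads. For each gene the estimated counts were added up and then rounded. Genes were kept by edgeR's filter with a minimum count of 10. After TMM scaling, differences over the 6 libraries were tested by quasi-likelihood, with Benjamini-Hochberg adjustment and a threshold of 0.05. A prior count of 2 was used in log2 CPM of the control spread and of the marker levels, not in these fits. Libraries held 17131515 to 25354384 reads. Promoter groups joined starts within 100 bases, with 500 as the alternative. Ratios of paired genes used TPM plus 0.1. The code was tested on simulated data. R 4.3.3, edgeR 4.0.16, DESeq2 1.42.0, Python 3.11.15 and scipy 1.17.1 were used.

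Members and gene lists were chosen with earlier results of these data known. Every member is accounted for: those with a mean of at least 1 CPM by library, with fold change, SE and adjusted p for called members and those of at least 10 CPM. Of the other imprinted genes and the maintenance factors, called genes and the 3 of highest control level are named. Called nearest genes are named too, while not every called cell type marker is. Others were picked after their values were seen. The labels do not say whether replicate numbers mark litters or days. Deviations of same-numbered libraries from their group means correlated at r = 0.427, 0.135 and 0.196, and those of other pairs at -0.318 to 0.14. These ranges overlap, so the pairing is uncertain. Same-numbered libraries were taken as pairs in a blocked alternative only. The other alternatives were DESeq2, its size factors, no filter, acinar or mesenchymal marker level as a covariate, a length offset, and leaving out each library.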

Additional observations from a re-analysis of the deposited data

How the results depend on the processing

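The number of libraries, 3 a group, and low reads (5 members with at most 10 in a library) limit what could be called, and changes of H19, Kcnk9 and Mkrn3 rest on few reads. Zim1 and Usp29 were called under each of the 13 alternative settings listed in the processing. With DESeq2, 4 members were called higher, and 19 member promoter groups were called lower and 4 higher. In the fit with the replicate block, 16 members were called lower and 3 higher, no member promoter group was called (0 lower), and Rian was at -0.0054. With the acinar level as a covariate, 5 members were called lower and 0 higher, 0 promoter groups lower, Nap1l5 was at 0.10 and Ndn at -0.013. With the mesenchymal level, 2 members were called lower and 0 higher with a median of -0.68, 0 promoter groups were lower, Dcn was at -0.00013, Igf2r at 0.023 and Ndn at -0.041. With an offset for transcript length, 8 members were called lower and 1 higher (H19), with Dlk1, Igf2, Impact and Mkrn3 lost (adjusted p = 0.0645, 0.0929, 0.0841 and 0.0567 in edgeR), and Herc3 was at -0.095. With DESeq2's size factors in edgeR, Impact was lost (adjusted p = 0.0501). Without the filter, Dcn and Ppp1r9a were added. Over all genes, calls were 1388 with the length offset, 1647 with DESeq2's size factors and 1964 without the filter. Of the other imprinted genes, 6 were called lower with DESeq2, 0 lower and 1 higher with the acinar level, and 0 in either direction with the mesenchymal level, and Dnmt3a was lost with either level and with the length offset (0 called lower each time). The fits with a covariate, a block or a library left out have fewer residual degrees of freedom or samples, and the cause of each change was not tested.

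Leaving out each library in turn gave 5 to 8 members lower, 1 higher in each fit (H19), and a median of -0.42 to -0.22. It gave 0 to 3 member promoter groups lower, 1 to 2 other imprinted genes lower and 0 to 1 maintenance factors lower. Calls over all genes were 737 to 1330 in these fits, against 1634 with all libraries. Log2 differences that changed sign ranged from -0.026 to 0.40 for Meg3, -0.28 to 0.25 for Rian (-0.013 without control replicate 1), -0.11 to 0.74 for Mirg, -0.27 to 0.012 for H13, -0.53 to 0.32 for Mest, -0.58 to 0.80 for Asb4, -0.61 to 0.41 for Nap1l5, -0.039 to 0.69 for Plagl1 and -0.57 to 0.35 for Inpp5f. The difference in ratio ranged from -0.43 to 0.40 for Peg10 to Sgce and from -0.71 to 0.19 for Mest to Copg2, and kept its sign for the other 4 pairs. With CPM in place of TPM, the difference was -4.77 for Igf2 to H19 and -0.015 for Peg10 to Sgce. With starts joined within 500 bases, the share of the leading Trappc9 group differed by -5.32 percentage points.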
